A study of Mus musculus with 4 samples.

Results

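The genes described here mark the Purkinje cell, the sole output neuron of the cerebellar cortex. They were chosen by name as CALB1, PCP2, PCP4, CAR8, ITPR1, RORA, PVALB, FOXP2 and SKOR2, and every probe of the deposited array table that carries one of these 9 names was taken. Of the 9 genes 8 had a probe under their name, with 16 probes among the 45281 probes and 30854 gene names of the table, and no probe was named SKOR2. RNA came from the dissected anterior lobes and, separately, the posterior lobes of the cerebellum of Swiss mice at postnatal day 7, with 2 samples of each lobe and no treatment in any sample. The study asked which genes differ between the lobes. Whether the replicates were separate animals, litters or pools is not stated in the labels, so the p-values measure only the spread between these samples. The samples are whole pieces of tissue, and fewer Purkinje cells in a lobe and less RNA per Purkinje cell cannot be told apart.

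Purkinje cells receive the parallel fibres of the granule neurons and the climbing fibres of the inferior olive, and they inhibit the cerebellar nuclei with GABA. They are known for very large calcium signals, which come from channels of the surface membrane and from stores that the IP3 receptor opens, and for an unusual amount of calcium-buffering protein. In the first postnatal week they settle into a single layer and begin to grow their dendritic trees.

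The arrays were Illumina bead arrays, on which a probe is a short DNA sequence carried by many beads and the signal is the mean brightness of these beads in arbitrary units. The median intensity of the 4 arrays lay between 110.2 and 129.6, with a median of 40 to 42 beads per probe. A probe counted as detected where its detection p-value, which ranks it against the negative controls, was under 0.05, which held for 46.5% to 47.6% of the probes of an array. Probes detected on 2 or more arrays, 21726 in all, were tested on the log2 scale after quantile normalization, and each probe is reported on its own because the levels of different probes are not comparable. Every difference is given as posterior minus anterior. The arrays of anterior lobe RNA differed more from each other than those of posterior lobe RNA, with an SD of the log2 difference of 0.318 against 0.203 over the tested probes. With 2 arrays against 2, an exact two-sided permutation test cannot give a p below 0.333, so each test leans on the spread that limma, a linear model with a shared variance estimate, takes from all probes.

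No probe of the Purkinje identity genes differed between the lobes by the criterion of the study, a fold over 1.2 with an unadjusted p under 0.05. The count was 0 of the 10 tested probes, where 8.29% of all tested probes passed, 3.3% with a higher and 5% with a lower posterior signal. The parvalbumin probe had a p under 0.05 but a signal only 1.19-fold lower in the posterior lobes. The dimmer probe of PCP2, 1.29-fold higher, missed the criterion by its p of 0.053 by limma, and the dimmer RORA probe had the largest difference of the 10, a log2 difference of -0.42 (unadjusted p = 0.14 by limma). The inositol trisphosphate receptor ITPR1, the brighter probes of PCP2 and RORA, and FOXP2 lay within 0.13 of 0 on the log2 scale. CALB1, CAR8 and PCP4 gave no signal above background in either lobe. By limma 1 of the 10 probes had an unadjusted p under 0.05. At least 8.29% of all tested probes had one, since that share passed the fold as well. Of the 10 probes 0 passed a Benjamini-Hochberg adjusted p of 0.05, which 0.106% of all tested probes passed. With the methods' t-test 1 probe had an unadjusted p under 0.05 as well, where at least 3.41% of all tested probes did. It was the PVALB probe in both.

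**Figure D1:**
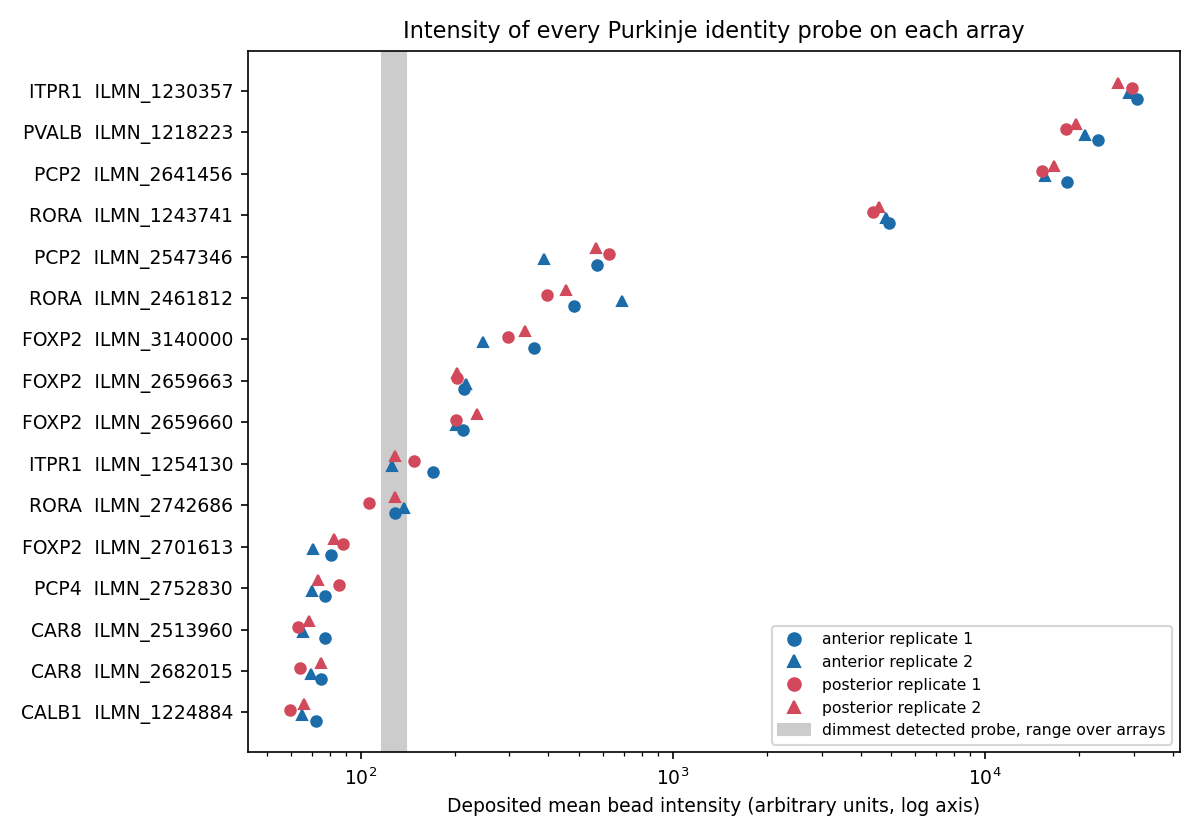
The deposited bead intensity, in arbitrary units on a log axis, of each of the 16 probes on each of the 4 arrays, with circles for replicate 1, triangles for replicate 2, blue for anterior and red for posterior lobes. The grey band spans the lowest intensity of a detected probe over the arrays, 116.9 to 139.8, and the probes of CALB1, CAR8 and PCP4 lie to its left on all 4 arrays.

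Detection set a limit before any comparison. Of the 16 probes 9 were detected on all 4 arrays, 1 on 3 arrays, 1 on a single array and 5 on none. The tested probes belonged to 5 genes, ITPR1, PVALB, PCP2, RORA and FOXP2. Calbindin (CALB1), the classic immunostaining marker of Purkinje cells, had a single probe, ILMN_1224884, with intensities of 71.9 and 64.7 on the anterior and 59.4 and 66.1 on the posterior arrays, and between 0.609 and 0.941 of the negative controls were at least as bright. The plot of intensities by probe shows the same for both probes of CAR8, at 62.8 to 76.8, and for the probe of PCP4, at 69.7 to 85.0. The transcripts of these genes are textbook features of Purkinje cells, and these probes give no level and no fold for them. Among 20 other Purkinje-enriched genes, the 18 with a probe were all detected on enough arrays to be tested.

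ITPR1 forms the channel through which inositol trisphosphate releases calcium from the endoplasmic reticulum, and Purkinje cells hold more of it than almost any other neuron. Its probe ILMN_1230357 had intensities of 30860.0 and 28961.5 on the anterior and 29676.1 and 26719.6 on the posterior arrays. The highest intensity of any probe on an array was between 34215.2 and 39804.7, so this probe sat near the top of the range. The standard error over the beads of the probe was 2.50% to 3.41% of its intensity. Normalized, the anterior log2 signal of 14.85 ± 0.04 (SD, n = 2) stood against a posterior one of 14.78 ± 0.08, and the arrays of the lobes overlapped. The log2 difference was -0.07 with a 95% interval of -0.21 to 0.07 (adjusted p = 0.72 by limma). That is a fold of 0.865 to 1.05, but the lower end depended on the processing and lay beyond 1.2-fold, at -0.30 to -0.38 on the log2 scale, with cyclic loess, no normalization, no intensity trend, the methods' t-test or without posterior replicate 1. A second ITPR1 probe, ILMN_1254130, was dim, at 170.6 and 126.1 in the anterior and 148.2 and 129.1 in the posterior lobes, and was not detected on the array of posterior replicate 2. Its log2 difference was -0.12 with an interval of -0.42 to 0.18. CAR8, a carbonic anhydrase relative without enzyme activity that binds ITPR1 and lowers its affinity for the ligand, could not be compared.

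PVALB encodes parvalbumin, a calcium buffer that Purkinje cells share with the basket and stellate interneurons of the molecular layer. Its probe ILMN_1218223 had intensities of 23078.6 and 20991.2 on the anterior and 18184.3 and 19667.9 on the posterior arrays, with bead standard errors between 310 and 906. Both anterior arrays were brighter than both posterior arrays. The log2 signal was 14.42 and 14.48 in the anterior and 14.16 and 14.24 in the posterior lobes, so the gap between the lobes was wider than the gap within either. The log2 difference was -0.25 with a 95% interval of -0.39 to -0.11 (unadjusted p = 0.0050 and adjusted p = 0.28 by limma). A larger difference in size was found for 15.9% of all tested probes. PCP4, also called PEP-19, a small protein that binds calmodulin, and the calcium buffer CALB1 were not detected, so PVALB was the one calcium-binding member with a measured difference.

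**Figure D2:**
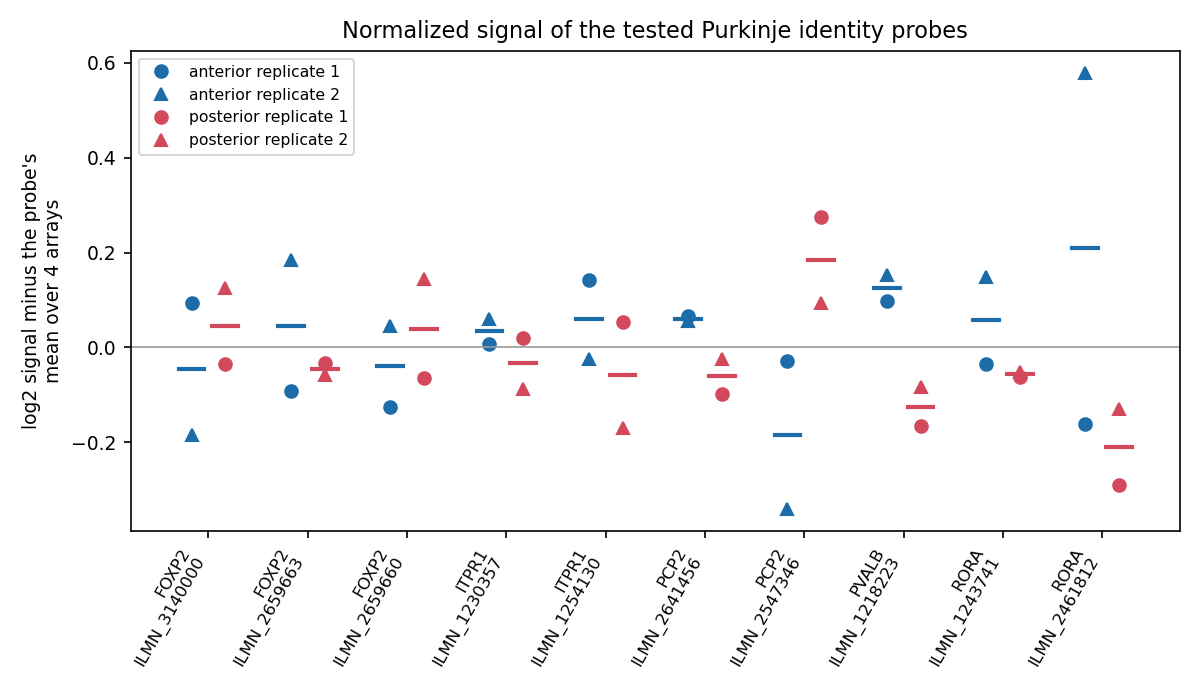
The normalized log2 signal of the 10 tested probes, each centred on its own mean over the 4 arrays, with a point per array and a bar for the mean of each lobe. The lobes are apart for PVALB, for both probes of PCP2 in opposite directions and, narrowly, for RORA ILMN_1243741, and they overlap for FOXP2, for ITPR1 and for RORA ILMN_2461812.

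PCP2, also called L7, is a modulator of inhibitory G proteins whose promoter is widely used to direct transgenes to Purkinje cells. Its probes went opposite ways. ILMN_2641456 had intensities of 18402.3 and 15585.3 on the anterior and 15273.3 and 16659.9 on the posterior arrays. After normalization it gave a log2 signal of 14.07 ± 0.01 (SD, n = 2) against 13.95 ± 0.05, a log2 difference of -0.12 with an interval of -0.26 to 0.02 (adjusted p = 0.54 by limma). The dimmer ILMN_2547346 had intensities of 571.2 and 385.9 in the anterior and 626.8 and 567.5 in the posterior lobes. Its log2 signals were 9.03 and 8.71 in the anterior and 9.33 and 9.15 in the posterior lobes, a log2 difference of 0.37 with an interval of -0.01 to 0.74 (unadjusted p = 0.053 and adjusted p = 0.50 by limma). On neither probe did the arrays of the lobes overlap. Of the 10 tested probes 4 did not overlap between the lobes, where 42.6% of all tested probes did not. Within each array the log2 ratio of the dimmer to the brighter PCP2 probe was -5.05 and -5.35 in the anterior and -4.58 and -4.83 in the posterior lobes. The ratio was thus higher on both posterior arrays, by 0.49 (exact two-sided permutation p = 0.33, the smallest that 4 arrays allow). This was 1 of 5 pairs of probes of a single gene compared, a comparison chosen after the values were seen, and in the other 4 pairs the arrays of the lobes overlapped.

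RefSeq lists more than one transcription start for Pcp2, and the probes of this array come without a sequence or position in the files used here, so they were not tied to a start. The windows of 250 bases before to 50 bases after a start are shown for the identity genes whose window holds AGGTCA, the half-site letters that RORA, itself one of the identity genes, is known to bind. RefSeq windows of the mouse build GRCm38.p6 were at hand for 4 of the 9 genes, with 8 windows in all (Pcp2 with 4, Pvalb with 2, Rora and Pcp4). The letters, read on both strands, occur in 16.3% of 32851 such windows of all genes and in 4 of these 8, at 3 distinct places because neighbouring Pcp2 windows overlap. None of the windows of Pvalb and Rora holds them, and TGTTTAC, core letters of forkhead factors such as FOXP2, occur in 0 of the 8 windows and in 3.65% of all. Capitals mark AGGTCA, or TGACCT where it lies on the opposite strand. The windows are those of Pcp2 at chr8:3625498-3625797 (minus strand, the letters 12 bases before the start), Pcp2 at chr8:3624987-3625286 (minus strand, 26 bases before) and Pcp4 at chr16:96467356-96467655 (plus strand, 164 bases before, reversed).
Pcp2, upstream start: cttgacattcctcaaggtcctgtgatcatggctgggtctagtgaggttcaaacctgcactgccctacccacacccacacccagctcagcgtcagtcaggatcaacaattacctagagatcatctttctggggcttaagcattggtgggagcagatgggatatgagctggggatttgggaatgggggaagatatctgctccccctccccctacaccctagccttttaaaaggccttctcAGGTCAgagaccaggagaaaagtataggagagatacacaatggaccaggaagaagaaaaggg
Pcp2, downstream start: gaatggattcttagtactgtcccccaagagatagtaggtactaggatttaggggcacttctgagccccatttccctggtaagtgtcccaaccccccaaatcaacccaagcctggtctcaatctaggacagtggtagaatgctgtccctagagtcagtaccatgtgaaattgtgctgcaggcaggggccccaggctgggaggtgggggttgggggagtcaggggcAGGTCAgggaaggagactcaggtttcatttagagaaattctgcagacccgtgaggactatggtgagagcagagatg
Pcp4: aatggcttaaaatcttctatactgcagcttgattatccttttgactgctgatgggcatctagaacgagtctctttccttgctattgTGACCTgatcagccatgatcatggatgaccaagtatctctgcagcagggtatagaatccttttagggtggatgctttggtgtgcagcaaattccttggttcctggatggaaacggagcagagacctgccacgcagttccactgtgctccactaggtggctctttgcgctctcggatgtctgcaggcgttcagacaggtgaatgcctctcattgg
A match of these letters is a description of the sequence and was not set against binding, which was not measured.

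RORA, a nuclear receptor whose loss in the staggerer mouse stops Purkinje cell maturation, drives calcium signalling genes and Sonic hedgehog in these cells and is also found in molecular layer interneurons. Its brightest probe, ILMN_1243741, had intensities of 4925.9 and 4818.6 on the anterior and 4376.3 and 4587.1 on the posterior arrays. The log2 signal was 12.25 ± 0.13 (SD, n = 2) against 12.14 ± 0.01, and the log2 difference was -0.11 with an interval of -0.32 to 0.10 (adjusted p = 0.68 by limma). Both posterior arrays lay below both anterior arrays, by less than the spread between the anterior arrays. ILMN_2461812 had intensities of 482.5 and 686.9 in the anterior and 396.6 and 454.6 in the posterior lobes. Here the array of anterior replicate 2 stood above the other 3, with a log2 signal of 9.52 against 8.66 to 8.82. The log2 difference of -0.42 therefore has a wide interval, -1.03 to 0.19 (adjusted p = 0.61 by limma), and it was -0.05 without anterior replicate 2 and -0.79 without anterior replicate 1. The remaining RORA probe, ILMN_2742686, was detected on the array of anterior replicate 2 and on no other, at an intensity of 137.8, and was not tested.

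FOXP2, a forkhead transcription factor that stays on in Purkinje cells after they leave the cell cycle, was measured by 3 tested probes, all of low intensity. ILMN_3140000 read 360.1 and 247.3 on the anterior and 296.6 and 335.2 on the posterior arrays. ILMN_2659660 read 213.0 and 201.9 against 202.6 and 235.9, and ILMN_2659663 read 214.0 and 218.2 against 204.0 and 203.6. The anterior and posterior arrays overlapped on each of the 3 probes after normalization. Their log2 differences were 0.09, 0.08 and -0.09, with intervals that together span -0.42 to 0.45 and adjusted p between 0.85 and 0.87 by limma. The interval of ILMN_3140000 allows a change beyond 1.2-fold in either direction. That of ILMN_2659660 allows only such a rise and that of ILMN_2659663 only such a fall. A modest lobe difference of FOXP2 was thus not detectable with these arrays. The fourth probe, ILMN_2701613, was not detected on any array.

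**Figure D3:**
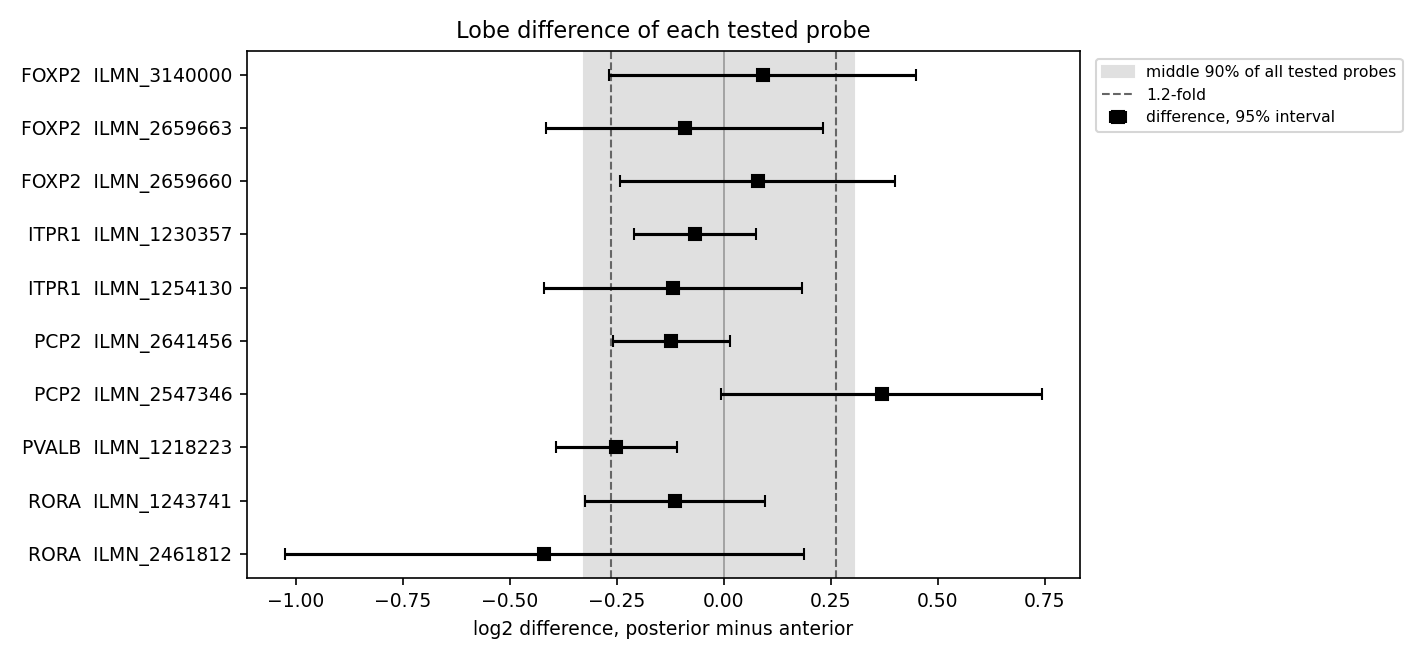
The log2 difference, posterior minus anterior, of each tested probe as a square with its 95% interval by limma. Dashed lines mark 1.2-fold and the grey band runs from -0.33 to 0.30, with 5% of all tested probes beyond it on either side. The intervals of the brightest probes of ITPR1, PCP2 and PVALB are narrow, and among the 10 only that of PVALB leaves out 0.

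Taking for each gene its brightest tested probe, ITPR1, PVALB, PCP2 and RORA were lower by sign in the posterior lobes and FOXP2 higher. The median log2 difference of the 5 genes was -0.11, against 0.01 over all 15615 tested genes. By sign 47.7% of all tested genes were lower, and among the 2182 genes at least as bright as RORA the median was 0.003 with 48.8% lower. The 5 genes were read in the same 4 samples, so their signs are not independent of each other. Among the 19905 other probes detected on every array, the centred profile over the 4 arrays was closest to the mean profile of the 5 genes for NOL6, 2810410P22RIK and A630047J05RIK, with Euclidean distances of 0.009, 0.009 and 0.011. The mean profile itself spanned -0.07 to 0.05 around its centre.

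The median was -0.14 in the list of 20 other Purkinje-enriched genes too, of which 18 had a probe and were tested. By the criterion of the study 1 of the 18 was higher and 3 were lower in the posterior lobes, where 7.92% of all tested genes passed it, 3.45% higher and 4.46% lower. None passed the adjusted p by limma in this fit of all 4 arrays without a replicate block. By sign 6 were higher and 12 lower. RGS8, a regulator that shortens G protein signals, fell by 0.69 on the log2 scale (unadjusted p = 0.0051, adjusted p = 0.28 by limma), with log2 signals of 12.76 and 13.26 in the anterior and 12.27 and 12.36 in the posterior lobes. CACNA1A, the pore of the P/Q-type calcium channel, fell by 0.35 (unadjusted p = 0.028, adjusted p = 0.43 by limma). LHX5, a LIM homeobox factor of early Purkinje cells, rose by 0.37 (unadjusted p = 0.030, adjusted p = 0.44 by limma), with 9.34 and 9.58 in the anterior and 9.88 and 9.77 in the posterior lobes. Its partner LHX1 differed by -0.10, not past the criterion. With the methods' t-test 0 of the 18 passed, and 3.41% of all tested probes did. Without anterior replicate 1, which leaves a single anterior array, the count was 8, all lower, where 22.1% of all tested probes passed, and it was 1 and 2 without posterior replicates 1 and 2, where 3.58% and 3.80% did.

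Of the 32 genes of calcium store signalling around ITPR1, 28 were tested, and 6 of these are also in the list of other Purkinje-enriched genes. The criterion was passed by 5 genes, all lower in the posterior lobes, where 4.46% of all tested genes were. None of the 28 passed the adjusted p by limma in this fit of all 4 arrays without a replicate block. The median log2 difference was -0.14, with 10 genes higher and 18 lower by sign. They included ATP2B2, the calcium pump of the surface membrane, at -0.38, CAMK2B, a calmodulin-dependent kinase, at -0.29, ITPKA, which phosphorylates inositol trisphosphate, at -0.33, and RYR2, a ryanodine receptor, at -0.26. The adjusted p of these 4 genes lay between 0.24 and 0.48 by limma. ATP2B2 had log2 signals of 12.25 and 12.40 in the anterior and 11.92 and 11.96 in the posterior lobes on its brightest probe, ILMN_3113303, while another of its probes, ILMN_2688213, differed by 0.63 without passing the criterion. The second tested probe of CACNA1A, ILMN_1212985, differed by -0.21 and did not pass it, and of the other probes of RYR2 ILMN_1244015 passed at -0.70 and ILMN_1242706 did not at -0.12. PLCB4, the phospholipase that makes the ligand of ITPR1, differed by -0.25 without passing. With the arrays shifted to a common 75th percentile in place of quantile normalization 2 genes passed, where 8.41% of all tested probes did, and with the methods' t-test 2, where 3.41% did. Without anterior replicate 1 the count was 9, with 1 of them higher, and without posterior replicate 1 it was 3, where 22.1% and 3.58% of all tested probes passed.

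Relatives of the identity genes that are made in other cells or in other amounts went both ways. Of 17 relatives 12 were tested, with 6 higher and 6 lower by sign and a median log2 difference of 0.02. CALB2, calretinin, the relative of calbindin that marks unipolar brush cells and granule neurons and not Purkinje cells, rose by 0.37 (adjusted p = 0.13 by limma). Its log2 signals were 13.17 and 13.21 in the anterior and 13.56 and 13.55 in the posterior lobes, far apart for the spread within each lobe, and its second probe, ILMN_2597412, rose by 0.44. PCP4L1, the relative of PCP4, fell by 0.27 on ILMN_1254622 and differed by 0.03 on ILMN_1218127. FOXP1 differed by 0.31 and -0.14 on its probes, neither past the criterion. SKOR1, named LBXCOR1 on the array and the relative of the unmeasured SKOR2, differed by 0.16.

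**Figure D4:**
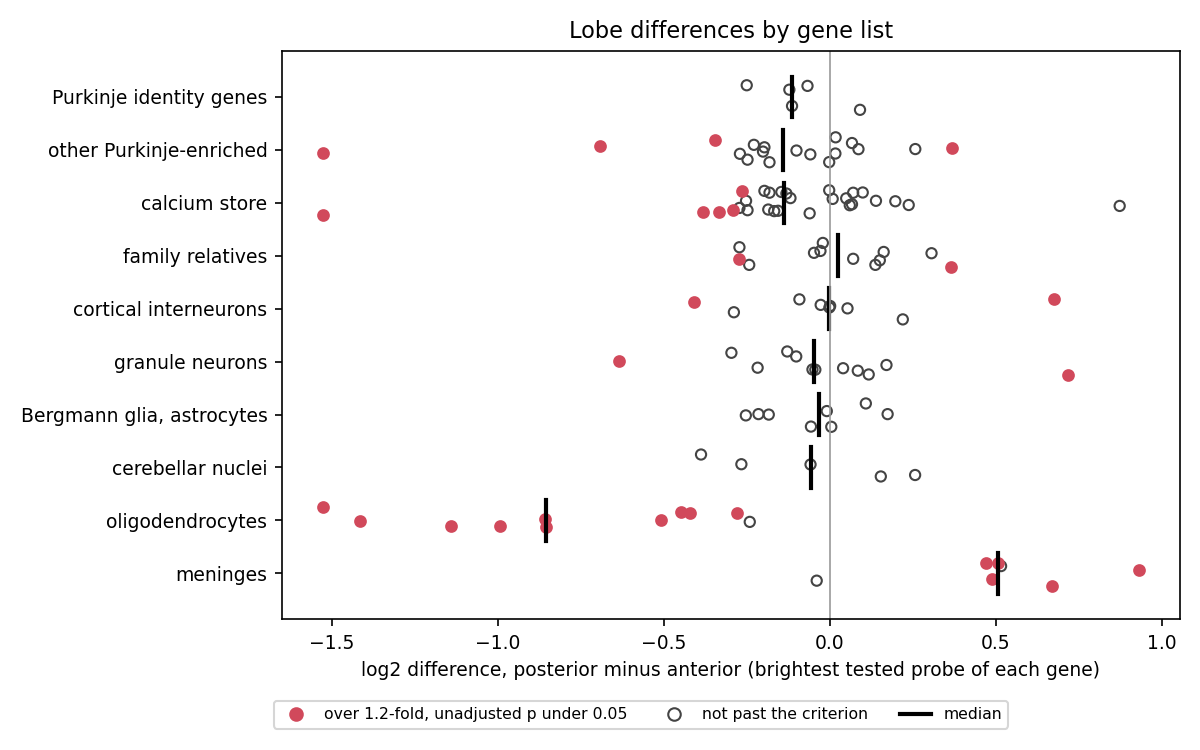
The log2 difference, posterior minus anterior, of the brightest tested probe of each gene in 10 gene lists, with red points past 1.2-fold and an unadjusted p under 0.05, open points for the rest and a black bar at the median. The Purkinje and calcium store lists have medians of -0.11, -0.14 and -0.14, the oligodendrocyte list one of -0.86 and the meningeal list one of 0.51. The lists of choroid plexus and of brainstem neurons are left out of the plot.

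Because PVALB and RORA are shared with interneurons and the samples are mixed tissue, the lists of other cell types were read beside them. Of 11 genes of the GABAergic interneurons 9 were tested, with a median log2 difference of -0.001, and their summed signal was 32825 and 33535 in the anterior and 32998 and 32756 in the posterior lobes. The list holds genes of GABA use such as GAD1 and SLC32A1, and Purkinje cells use GABA too. Its median and sum are therefore not those of interneurons alone. In this list 1 gene was higher and 1 lower by the criterion. PRKCD rose by 0.68, and SORCS3 differed by -0.29 without passing. The summed signal of the 5 Purkinje identity genes was 73144 and 75460 in the anterior and 67729 and 67589 in the posterior lobes. Such a sum weighs the brightest probes most, here those of ITPR1, PVALB and PCP2, and of these PVALB had the largest log2 difference, -0.25. The granule neuron list had a median of -0.05 over 12 tested genes, with ZIC2 higher and ETV1 lower by the criterion and BARHL1 next in size without passing. The list of Bergmann glia and astrocytes had a median of -0.03 over 8 genes, with AQP4, SLC1A2 and ALDH1L1 the farthest from 0, and that of the cerebellar nuclei -0.06 over 5, with LMX1A, TBR1 and SLC17A6 the farthest, and 0 genes passed in either. Of the oligodendrocyte genes 10 of 11 were lower by the criterion, 4 of them past the adjusted p by limma, with a summed signal of 116926 to 118795 in the anterior and 77256 to 82689 in the posterior lobes. They included MAG at -0.99 and MOBP at -1.14, and MAL, MOG, UGT8A, CNP, SOX10, MBP and CLDN11. Meningeal genes went the other way, with DCN, ALDH1A2, LUM, COL3A1 and IGF2, 5 of 7, higher and a summed signal of 15063 to 17103 against 22311 to 25944. Of the choroid plexus list, OTX2 was higher and CLIC6 lower among 5 tested genes. The study names OTX2 among genes restricted to compartments of the developing cerebellum, so its value cannot be read as choroid plexus alone. TTR, the defining gene of the list, was higher in replicate 2 of either lobe, with log2 signals of 9.10 and 13.34 in the anterior and 8.37 and 11.85 in the posterior lobes. Of 11 brainstem genes 1 was tested, and it did not pass the criterion. The part of these other tissues in the values of the Purkinje genes was not tested.

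**Figure D5:**
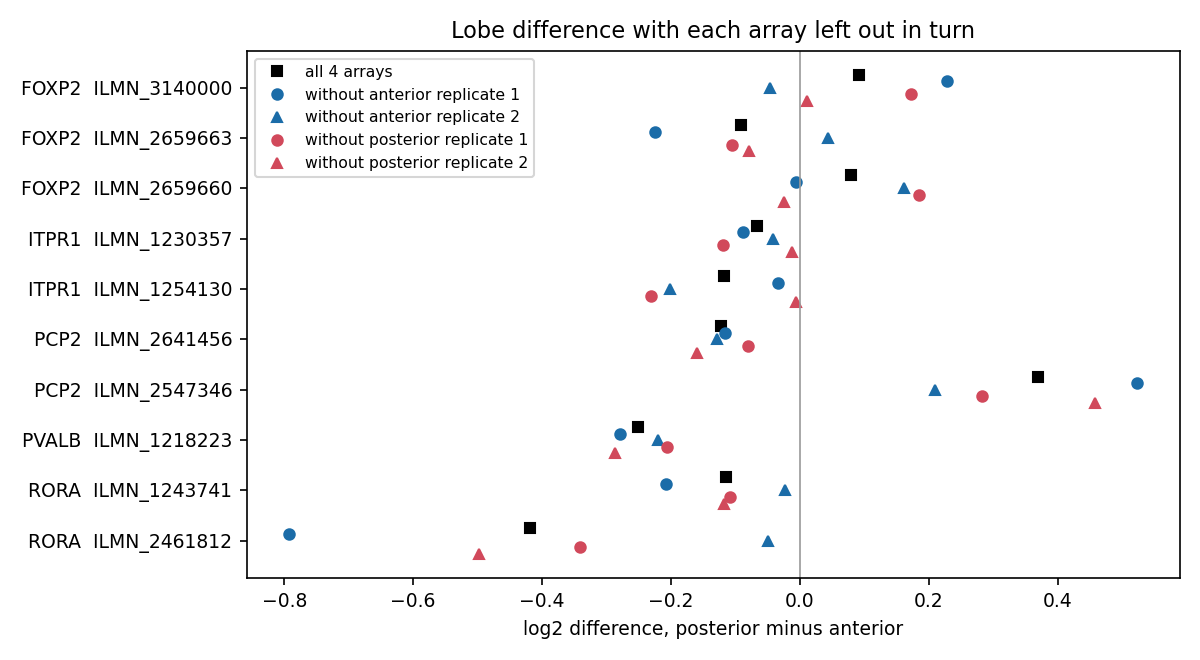
The log2 difference, posterior minus anterior, of each tested probe with all 4 arrays (black squares) and with each array left out in turn (coloured points). The difference of PVALB stays between -0.29 and -0.21, that of PCP2 ILMN_2547346 between 0.21 and 0.52 and that of RORA ILMN_2461812 between -0.79 and -0.05.

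The calls on the Purkinje identity genes depended on single arrays. Without anterior replicate 1, PVALB, PCP2 ILMN_2547346 and RORA ILMN_2461812 passed both the criterion and the adjusted p (0.026, 0.033 and 0.0039 by limma), where 22.1% of all tested probes then passed the criterion and 12% the adjusted p. This fit holds a single anterior array, so its spread comes from the posterior pair alone, the closer pair, and is taken to hold for the anterior lobes too. Without posterior replicate 2 PVALB passed the criterion at -0.29, with an adjusted p of 0.99 by limma, and without either of the other arrays 0 of the probes passed it. The sign of ITPR1, PVALB, PCP2 and RORA was the same with any of the 4 arrays left out on each of their tested probes, as the plot with arrays left out shows, while all 3 FOXP2 probes changed sign without some array.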

How the data were processed

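RNA was labelled and hybridized to Illumina MouseWG-6 arrays, 1 array per sample. Per the file headers the table was exported with GenomeStudio 1.9.0 without normalization. As deposited it gives for each probe and array an averaged intensity, the bead SD (a signal), the count of beads, and a detection score, the fraction of negative controls dimmer than the probe. Another 16 columns were not used. Intensities were quantile normalized with a floor of 1 before taking log2 (R 4.3.3). Probes detected on 2 arrays (1 minus the score under 0.05) were compared between lobes with limma 3.58.1 (lmFit, eBayes with intensity trend) and Benjamini-Hochberg adjustment. The fit was checked on simulated data drawn with limma's own moderated spread, after a first simulation with the raw SD of each probe had recovered fewer changes than asked of it. The criterion, a fold over 1.2 and a p under 0.05, is named in the study's methods.

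The genes and the gene lists were chosen with earlier results of these data known. Symbols are those of the array, and older names were matched through a RefSeq table. The genes named beside the 9 are, in each list, those past the criterion or the 3 largest differences where fewer passed, the closest profiles, and TTR, MAG and MOBP. Some genes that this rule names are counted but not reported here. LHX1, PLCB4 and SKOR1, the pairs of probes, the bead errors, the shares of non-overlapping probes and of genes as bright as RORA, and both motifs searched were added after values were seen. Lists were described by counts and medians over the brightest tested probe per gene. Alternatives were neqc (offset 16), no normalization, a common 75th percentile, cyclic loess, other detection filters, no trend, the methods' t-test, a replicate block and each array left out. The number of arrays limits the precision.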

Additional observations from a re-analysis of the deposited data

How the results depend on the processing

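Where a count moved, the cause was not tested. The number of Purkinje identity probes past the study's criterion was 0 of 10 by limma. Without normalization it was 1 (RORA ILMN_2461812 at -0.44), where 6.06% of all tested probes passed. Without a filter on dim probes it was 1 of 16 (PCP2 ILMN_2547346 at 0.37), where 5.51% passed. Without the intensity trend it was 1 (the same PCP2 probe at 0.37), where 8.57% passed. It moved with an array left out too, as given above. The number past the adjusted p was between 0 and 3 with an array left out, 3 without anterior replicate 1, and 0 otherwise. In the fit with a replicate block 2 probes passed the criterion, PCP2 ILMN_2547346 and RORA ILMN_2461812, with adjusted p of 0.18 and 0.21 by limma, and 13% of all tested probes passed it against 8.29% without the block. With the block 5 of the other Purkinje-enriched and 7 of the calcium store genes passed the criterion. Among the listed genes named here outside the oligodendrocyte, meningeal and other tissue lists, RGS8, ATP2B2, CALB2 and PRKCD then passed the adjusted p. Their adjusted p by limma was 0.0037, 0.039, 0.019 and 0.016 in this order. Of all tested probes 2.71% passed the adjusted p with the block, against 0.106% without it. In the same fit of all 4 arrays without the block these genes did not pass the adjusted p. The deviations of the same-numbered arrays of the lobes correlated with r = 0.46 over the tested probes, and no label says what the numbers share. The median log2 difference of the 5 genes, -0.11, was -0.054 with a common 75th percentile and between -0.12 and -0.046 with an array left out, the latter without anterior replicate 2. Over all tested probes the median was 0.032 with the 75th percentile, against 0.0023 with quantile normalization. The shifts of the median of the 5 genes were set against their median within-lobe SD, 0.059, a yardstick chosen after the values were seen. It replaced the SD of the per-array medians, 0.0066, by which cyclic loess (-0.11), no filter (-0.099) and no normalization (-0.086) moved the median too. Of the other Purkinje-enriched genes 4 passed, 0 with the methods' t-test and between 1 and 8 with an array left out. Of the calcium store genes 5 passed, 2 with the 75th percentile, 2 with the methods' t-test and between 3 and 9 with an array left out. With an array left out FOXP2 took both signs on each tested probe, between -0.22 and 0.044 on ILMN_2659663, between -0.024 and 0.18 on ILMN_2659660 and between -0.046 and 0.23 on ILMN_3140000. The share of higher probes among all that passed was 39.7%, and 53.5% with the 75th percentile. Probes at background, those of CALB1, CAR8 and PCP4, had no level to test under any setting with a detection filter.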
